A study of Mus musculus with 42 samples.

Results

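Heart muscle contracts through sarcomeres, in which myosin pulls on actin and the troponin complex switches that pull on when calcium is released from the sarcoplasmic reticulum. The atria use their own set of myosin light chains, and they secrete a natriuretic peptide that lowers blood volume. In the mouse, cardiac muscle of atrial type also runs from the heart into the lung along the pulmonary veins, so a piece of mouse lung can hold cardiac muscle cells.

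The genes followed here were Myh6, Myl7, Myl4, Nppa, Tnnt2, Tnni3, Sln, Actc1, Ryr2 and Mybpc3, all of cardiac muscle. They were chosen by gene symbol, and all 10 had a probe, 11 probes in all out of 55681 on the array, which covered 20668 named genes. The lungs came from adult male Muta™Mouse, a transgenic strain with a lacZ reporter for mutation tests, aged about 11 weeks. The mice were gavaged daily for 28 days with olive oil alone (vehicle, 4 lungs) or with the polycyclic aromatic hydrocarbon benzo(k)fluoranthene (BkF) in olive oil. The doses were 25 (low, 3 lungs), 50 (medium, 4 lungs) and 100 (high, 4 lungs) mg/kg-bw/day, and tissues were taken 72 hours after the last dose. Liver (4, 2, 3 and 4 arrays in the same order of dose) and forestomach (4, 3, 4 and 3 arrays) of the same 15 mice served for contrast. The study's methods give cardiac puncture as the way the mice were killed, and a random slice of the right lung lobe as the source of RNA.

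Each value below is a log2 ratio of the sample's Cy5 signal to the Cy3 signal of a universal mouse reference RNA on the same array. A value of 0 means the same signal as the reference, so levels are compared between samples for 1 gene and not between genes. A probe counted as measured on an array where its sample signal was well above background by the scanner software. The lung label held: the 6 lung epithelium genes (Sftpc, Sftpb, Sftpa1, Sftpd, Ager and Aqp5) were measured on all 15 lung arrays at log2 ratios of 3.95 to 7.88. The lungs of mice 3 and 12 stood apart. The lung of vehicle mouse 3 was the lowest by the mean deviation of the 10 cardiac genes from the median lung, at -1.92 on the log2 scale. The lung of medium-dose mouse 12 was among the 3 lowest lungs for 7 of the 10 genes, as were those of vehicle mice 1 and 3, and it alone carried high skeletal muscle genes, by a list mean 5.56 above the median lung against 0.42 or less in each of the other 14 lungs. Since each lung is a mixture of cells, fewer cardiac cells and less cardiac RNA per cell cannot be told apart.

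Myosin genes spanned a wide range among lungs of the same dose. Myh6, the alpha heavy chain that is the main motor of adult mouse heart, had log2 ratios of 3.43, 5.61, 0.54 and 4.88 in vehicle mice 1, 2, 3 and 4, and of 6.13, 5.66 and 5.33 in low-dose mice 7, 8 and 9. It had 5.53, 0.89, 5.43 and 6.28 in medium-dose mice 11, 12, 13 and 15, and 5.84, 5.08, 5.36 and 6.61 in high-dose mice 16, 17, 19 and 20. Mice 3 and 12 were thus far below the other 13 lungs, all of which were at 3.43 or more, and the dosed and vehicle lungs overlapped at every dose. A second, dimmer Myh6 probe was measured on 8 of the 15 lung arrays. It ran from -0.16 to 1.86, and mice 15, 7 and 20 were again the highest, with 1.86, 1.79 and 1.54.

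Myl7, the atrial regulatory light chain, was highest in the same 3 lungs as Myh6, those of mice 7, 15 and 20. Its log2 ratios were 0.95, 4.65, 0.38 and 1.76 in vehicle mice 1 to 4, and 4.94, 4.04 and 3.01 in low-dose mice 7 to 9. In medium-dose mice 11, 12, 13 and 15 they were 3.33, 0.35, 2.44 and 4.88, and in high-dose mice 16, 17, 19 and 20 they were 3.64, 2.60, 3.07 and 4.84. The probe was not well above background in mice 3 and 12, and vehicle mouse 2 lay above 8 of the 11 dosed lungs. Myl4, the atrial essential light chain, read 0.59, 3.95, -0.03 and 1.40 in the vehicle lungs and 4.71, 3.44 and 2.73 in the low-dose lungs. It read 2.51, 0.20, 1.78 and 4.77 in the medium-dose lungs and 2.94, 2.76, 2.17 and 5.56 in the high-dose lungs, so that at every dose some lungs were below the 3.95 of vehicle mouse 2 and others above it. Mybpc3, myosin-binding protein C of the heart, was lower than in the reference everywhere, from -3.55 in mouse 3 to -0.998 in mouse 20.

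**Figure D1:**
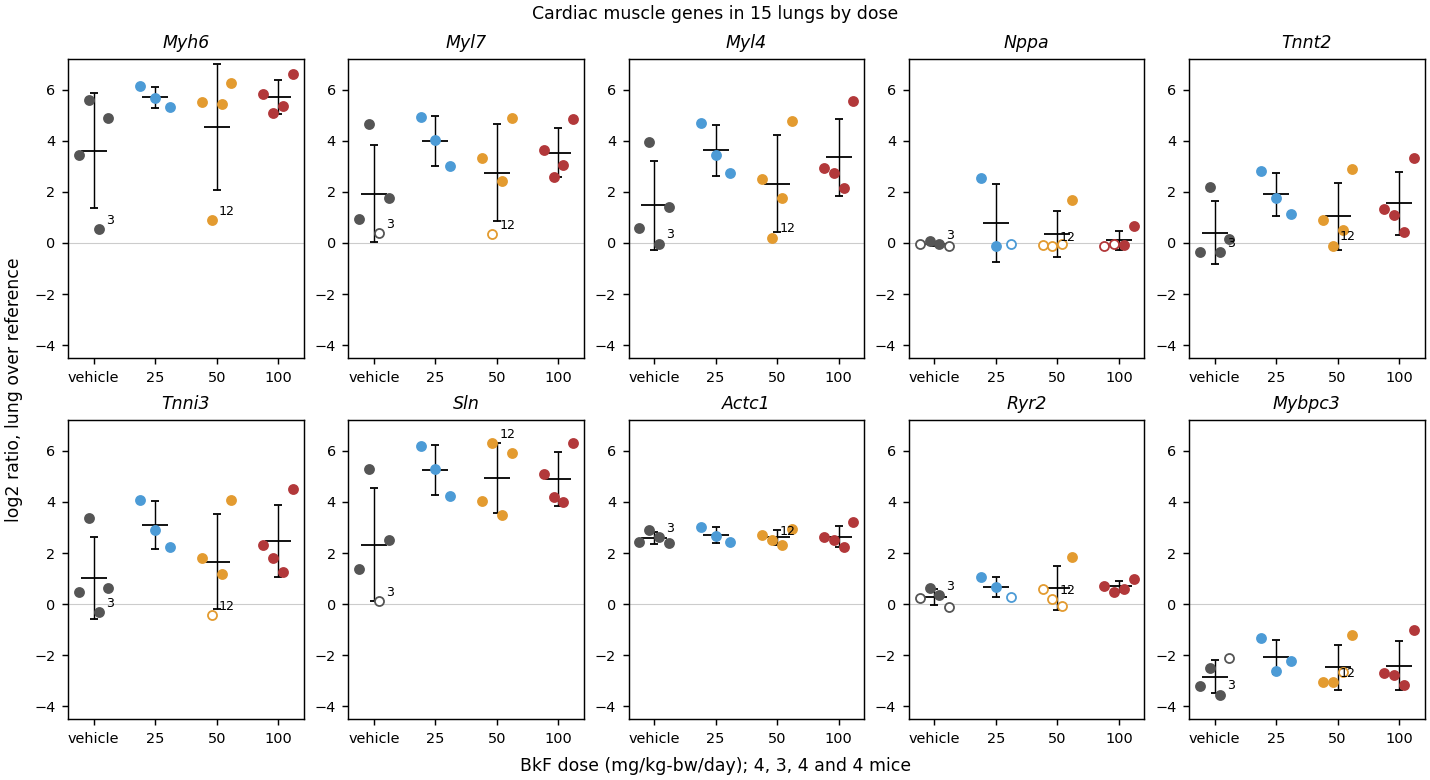
Log2 ratio of each cardiac gene over the reference RNA (y axis) in the 15 lungs by BkF dose (x axis, mg/kg-bw/day); each point is 1 lung, open where the probe was not well above background, and black marks are group means with SD. The lungs of mice 3 and 12 are labelled, and for Myh6, Myl7, Myl4, Tnnt2 and Tnni3 both lie near or at the bottom of their groups, while for Sln mouse 12 lies at the top, level with mouse 20 (but below 5 lungs with the scanner's ratios).

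The troponins moved over the lungs in the same way, and actin varied much less. Tnni3, the cardiac inhibitory troponin, had log2 ratios of 0.46, 3.35, -0.32 and 0.65 in vehicle mice 1 to 4 and of 4.10, 2.91 and 2.25 in the low-dose lungs. The medium-dose lungs gave 1.81, -0.42, 1.19 and 4.08, and the high-dose lungs gave 2.31, 1.82, 1.27 and 4.49. Mouse 12 was not well above background, and the top value of each dosed group was again that of mouse 7, 15 or 20. Tnnt2, the troponin that anchors the complex to tropomyosin, ranged from -0.36 in mice 1 and 3 to 3.33 in mouse 20 and was measured on all 15 arrays. Actc1, the cardiac alpha-actin, stayed between 2.23 and 3.20 in all 15 lungs and read 2.62 in mouse 3 and 2.50 in mouse 12. It was highest in mice 20, 7 and 15 and had r = 0.84 with Tnnt2 and 0.78 with Tnni3, but 0.36 with Myh6.

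Among the calcium-handling genes, Sln had the widest range of the 10 in these values, though not with the scanner software's ratios. Sln encodes sarcolipin, a small inhibitor of the calcium pump that is found in atrium and in skeletal muscle. Its log2 ratios were 1.38, 5.30, 0.12 and 2.53 in vehicle mice 1 to 4, and 6.19, 5.29 and 4.24 in low-dose mice 7 to 9. In the medium-dose lungs they were 4.04, 6.31, 3.49 and 5.92, and in the high-dose lungs 5.09, 4.20, 3.99 and 6.31. Mouse 12, near the bottom for the myosins and troponins, was level with mouse 20 at the top for Sln by log2 ratio. The Sln sample signal less background was 37079.5 in mouse 12, the highest of the lungs, against 9168 in mouse 15 and 2927 in mouse 20. Such signals also vary with the brightness of an array, and why signal and ratio differed here was not tested. With the scanner software's background-subtracted ratios the Sln of mouse 12 was 6.11, below that of mice 20, 7, 16, 15 and 8. Ryr2, the calcium release channel of the heart, was dim: it was measured on 9 of 15 lung arrays and lay between -0.12 in mouse 4 and 1.86 in mouse 15.

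Nppa, the atrial natriuretic peptide, was higher in 3 lungs than in the other 12, in 8 of which its probe was not well above background. It read 2.56 in mouse 7, 1.70 in mouse 15 and 0.68 in mouse 20, and no more than 0.09 in any other lung. The 3 lungs come from 3 different doses and are also the 3 highest lungs by the mean of all 10 genes. The array carries 10 spots of the Nppa probe, and their SD within 1 lung array was 0.13 to 0.22 with a median of 0.15, which is the spread of repeat spots and not of animals.

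The promoters of Myh6, Myl4 and Myl7 are shown because these genes had the largest spread over lungs among the 9 members with an entry in the RefSeq promoter table (build GRCm38.p6); Sln has none. Each line gives the 250 bases before the start of the gene, 5′ to 3′ on the gene's strand, and capitals mark the motifs searched on both strands, a CArG box or CATTCC.
Myh6, chr14:54966608-54966857, minus strand: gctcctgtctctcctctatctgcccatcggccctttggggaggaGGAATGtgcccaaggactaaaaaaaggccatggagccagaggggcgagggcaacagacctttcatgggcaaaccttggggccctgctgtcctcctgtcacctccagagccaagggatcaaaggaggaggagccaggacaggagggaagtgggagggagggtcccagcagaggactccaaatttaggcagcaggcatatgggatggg
Myl7, chr11:5898783-5899032, minus strand: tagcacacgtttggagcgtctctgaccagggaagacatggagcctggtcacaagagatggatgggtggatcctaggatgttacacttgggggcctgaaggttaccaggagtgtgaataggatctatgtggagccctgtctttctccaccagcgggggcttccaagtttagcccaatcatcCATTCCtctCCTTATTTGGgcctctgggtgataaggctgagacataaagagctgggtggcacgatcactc
Myl4, chr11:104550413-104550662, plus strand: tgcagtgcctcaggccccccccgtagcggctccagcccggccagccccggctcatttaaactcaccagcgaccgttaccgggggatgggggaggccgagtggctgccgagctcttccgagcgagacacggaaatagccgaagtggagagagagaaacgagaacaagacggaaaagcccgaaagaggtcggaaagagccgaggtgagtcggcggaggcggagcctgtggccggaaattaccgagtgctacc

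The CArG box, the site of serum response factor in muscle genes, began 61 bases before the Myl7 start and 47 bases before that of Actc1, and it was in 1.47% of the 32851 promoters of the table. CATTCC, the core of the site of TEAD factors, was in the windows of Myh6, Myl7 and Tnnt2 and in 12.6% of all promoters. The MEF2 box was in that of Mybpc3 and in 0.508% of all, GGTGTG, part of the T-box site, was in those of Nppa and Tnni3 and in 16.3%, AGATAA was in that of Tnnt2 and in 9.99%, and TATAAA was in that of Nppa and in 12.4%. None of the 6 was found in the windows of Myl4 and Ryr2.

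The first question was whether the levels followed dose. No member was called at any dose, where a call needs a limma adjusted p of at most 0.05 (Benjamini-Hochberg over 32697 probes) and a change of at least 1.5-fold. At the low dose 0 of the 10 members and 0 of all probes (0%) were called. At the medium dose 0 members were called against 5 probes in all (0.0153%), and at the high dose 0 members against 11 probes (0.0336%). The linear trend with dose called 0 members and 11 probes (0.0336%), and the test for any difference among the 4 groups called 0 members and 5 probes (0.0153%). At an unadjusted p under 0.05, 1 member passed at each of the 3 doses and in the test for any difference, each time Sln, and 0 in the trend. Over all probes 577, 1390, 2622, 2773 and 1327 passed that limit in the same 5 tests.

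The estimates behind these calls were large and imprecise. All 10 members were on average higher than in vehicle lung at each of the 3 doses, with a median difference of 1.77, 0.63 and 1.29 on the log2 scale at the low, medium and high dose, against medians of -0.01, -0.01 and 0.00 over all probes tested. Myh6 was higher than vehicle by 2.09 ± 1.18 (SE, 3 against 4 lungs) after the low, 0.92 ± 1.1 (4 against 4 lungs) after the medium and 2.11 ± 1.1 (4 against 4 lungs) after the high dose, with limma adjusted p of 1.00, 1.00 and 0.663. The medium dose thus gave the smallest Myh6 difference of the 3, and its group held the lung of mouse 12. Sln had the largest differences, 2.91 ± 1.02, 2.61 ± 0.94 and 2.56 ± 0.94, and its lowest limma adjusted p was 0.483, at the high dose. Actc1 differed from vehicle by 0.12 ± 0.22, 0.03 ± 0.21 and 0.05 ± 0.21.

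The lowest lungs were mostly vehicle lungs. The vehicle group held 3 of the 4 lungs with the lowest mean over the 10 members, those of mice 4, 1 and 3, while the remaining vehicle lung, of mouse 2, ranked 4th of 15 from the top. With the lungs of mice 3 and 12 both left out, a choice made after seeing the data, the low-dose difference of Myh6 went from 2.09 to 1.07, its high-dose difference from 2.11 to 1.08 (with mouse 3 alone left out, also 1.07 and 1.08) and the differences of Sln from 2.91 to 2.17, 2.61 to 1.41 and 2.56 to 1.82 at low, medium and high dose, and 0 members were called in each of the 5 tests. The medium-dose difference of Myh6, 0.92 with all lungs, was -0.11 without mouse 3 alone and 2.13 without mouse 12 alone. Its place below the other doses thus depended on single lungs. Lungs were hybridised on 4 slides, each with 1 vehicle lung. Within slides, Myh6 in the dosed lung was above that of the vehicle lung in 3 of 3 slides for low, 3 of 4 for medium and 3 of 4 for high dose. These within-slide differences ran from 0.05 to 2.70, from -4.73 to 5.74 and from -0.53 to 4.82. Sln was higher in the dosed lung in 2 of 3 slides for low, 4 of 4 for medium (by 0.96 to 5.79, mouse 12 included) and 3 of 4 for high dose.

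**Figure D2:**
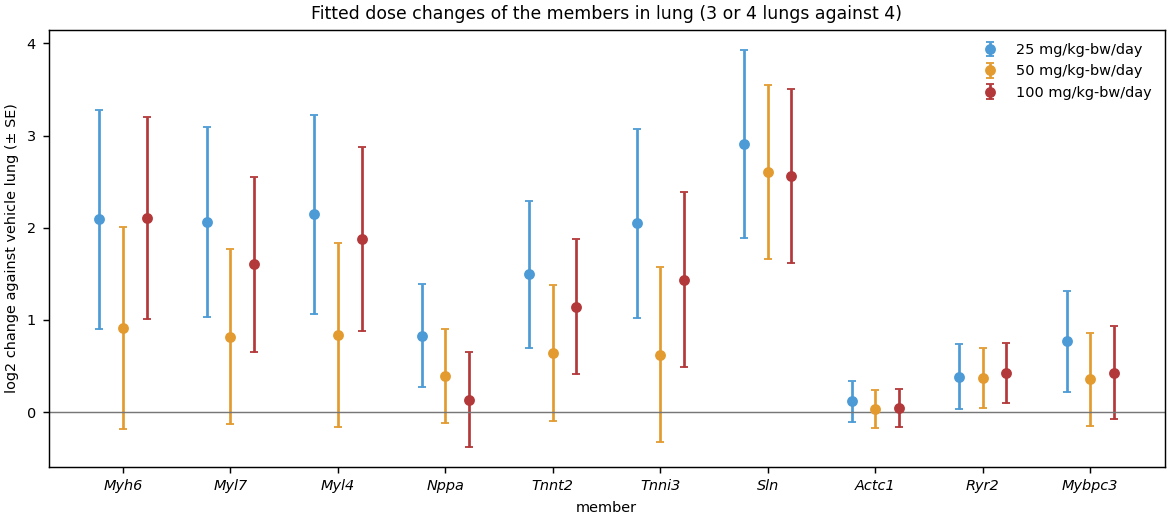
Fitted difference of each member from vehicle lung (y axis, log2 scale, bars are SE) after the low, medium and high dose of BkF (colours), from limma on 15 lungs. For Myh6, Myl7, Myl4, Tnnt2, Tnni3 and Mybpc3 the medium dose lies below both other doses, the intervals of ± 1 SE of the doses overlap for each member, and no difference passed the adjusted test.

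Spread between lungs of 1 dose was the main feature of these genes. The residual SD, the spread left after the dose group means, was 1.78 for Myh6, 1.62 for Myl4, 1.54 for Myl7, 1.53 for Tnni3, 1.53 for Sln and 1.19 for Tnnt2, against a median of 0.20 and a 99th percentile of 0.86 over the probes kept in lung. Those 6 members lay above the 99th percentile, and Myh6 had the 10th largest residual SD of 32697 probes. Nppa (0.83), Mybpc3 (0.81), Ryr2 (0.52) and Actc1 (0.32) lay below it, the last at the 79.8th percentile. Dose groups accounted for 2.23% (Actc1) to 45.2% (Sln) of the squared deviations, with a median of 23.8% over the members and 17.6% over all probes kept.

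The members varied together over lungs. Across the 15 lungs the 45 pairs had Pearson r of 0.36 to 0.99 with a median of 0.72, and 0.33 to 0.99 with a median of 0.71 after the dose group means were taken out; these are descriptions, and all pairs share the same arrays. The tightest pair was Myl4 with Tnni3 (r = 0.99), followed by Myl4 with Tnnt2 and Tnnt2 with Tnni3 (both 0.98). The loosest were Myh6 with Actc1 (0.36) and Myh6 with Nppa (0.37). The pairs of Sln with the myosins and troponins were closer once mouse 12 was left out: its r with Myl7 went from 0.69 to 0.98 and with Myh6 from 0.51 to 0.91, and over the other 14 lungs Sln and Tnni3 had the same rank order (rho = 1).

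A test was run for 2 relations, Myh6 with Myl7 and Myh6 with the skeletal actin Acta1. Myh6 and Myl7 had r = 0.88 and rho = 0.95 over 15 lungs (two-sided permutation p = 1e-05, the smallest that the 100000 resamples can give, adjusted p = 2e-05 over the 2 relations). Without mice 3 and 12, the 2 lungs farthest from the median of Myh6, r was 0.90 (permutation p = 1e-05), and on deviations from dose group means it was 0.85 (permutation p = 0.00012, adjusted p = 0.00024). Myh6 and Acta1 had r = -0.58 (permutation p = 0.107, adjusted p = 0.107) and rho = -0.15 (permutation p = 0.6). The negative r rested on mouse 12, since without that lung alone r was 0.0841. Without mice 3 and 12 it was 0.13 (permutation p = 0.666), and without mouse 3 alone -0.83 (permutation adjusted p = 0.0481). On deviations from dose group means r was -0.66 (permutation p = 0.0136, adjusted p = 0.0136). Those deviations still include mouse 12, so they do not show a relation apart from that lung.

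**Figure D3:**
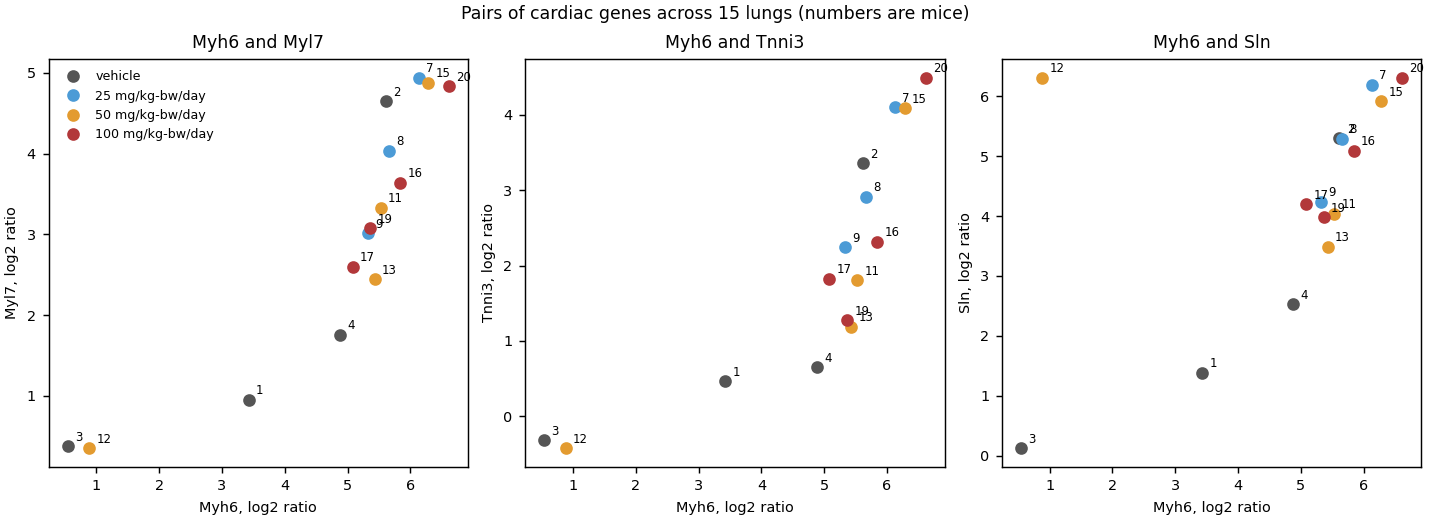
Myl7, Tnni3 and Sln (y axes, log2 ratio) against Myh6 (x axes, log2 ratio) in the 15 lungs, numbered by mouse and coloured by BkF dose. Lungs of all 4 dose groups lie along the same band, mice 3 and 12 sit at its low end for Myl7 and Tnni3, and mouse 12 leaves the band for Sln, with 6.31 at a Myh6 of 0.89.

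Ordered by the mean z-score of the 10 members, the lungs ran from medium-dose mouse 15, low-dose mouse 7 and high-dose mouse 20 (1.41, 1.37 and 1.36), through vehicle mouse 2 (0.53), to vehicle mouse 4 (-0.64), medium-dose mouse 12 (-0.93) and vehicle mice 1 (-0.98) and 3 (-1.29). Mice 7 and 20 had 10 of the 10 members among the 3 highest lungs, and mouse 15 had 9. All 10 members were well above background in mice 2, 7, 8, 15, 19 and 20, against 6 members in mouse 12.

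Many other sarcomere genes followed the members once mouse 12 was left out. Of 15 listed sarcomere genes 13 were kept in lung, and 8 of the 13 had r above 0.8 with the members' mean z-score once mouse 12 was left out, against 0 with it. Among them, Myl3, the ventricular and slow-muscle light chain, ran from 0.34 in mouse 3 to 3.93 in mouse 20, and read 4.89 in mouse 12 (r = 0.92 without mouse 12). Myl2, the ventricular and slow-muscle regulatory light chain, was measured on 3 of 15 arrays and read 4.06 in mouse 12 against at most 0.89 elsewhere. Myh7, the beta heavy chain, behaved differently, with 4.59 to 5.25 in all lungs, its highest value in mouse 3 and r = -0.07. None of the 13 was called at any dose, with median differences of 1.05, 1.17 and 0.65 at the low, medium and high dose. In the medium-dose group the mean of the list was 2.96 above the median lung in mouse 12 and 1.1 above it in mouse 15, against -0.11 in mouse 11 and -0.48 in mouse 13.

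Of 9 calcium-handling genes 8 were kept and 0 were called. Pln, phospholamban, the relative of sarcolipin in heart, ran from -0.14 in mouse 3 to 1.74 in mouse 7 with r = 0.95 to the members, and was measured on 6 of 15 lung arrays. Casq2, the cardiac calcium store protein, ran from -0.25 to 1.93 outside mouse 12, which had 2.47 (r = 0.94 without mouse 12). Without mouse 12, 6 of the 8 had r above 0.8, and the other two, Slc8a1 (the sodium-calcium exchanger) and Jph2 (junctophilin), had -0.27 and 0.13 and were measured on 8 and 3 of 15 lung arrays. Of 6 channel and junction genes 3 were kept and 0 called. Gja5, a connexin of atrium and of artery endothelium, read 3.39 to 5.45, highest in mouse 3 and lowest in mouse 12, with r = -0.01.

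Of 7 cardiac transcription factors listed, 5 were kept and 0 called. Nkx2-5, a master regulator of heart formation, ran from -1.18 to -0.51 with its highest value in mouse 20 (r = 0.53), and was measured on 8 of 15 lung arrays. Tbx5, which also acts in lung mesenchyme, ran from 2.68 to 4.14 (r = 0.16), and Tbx20 from -0.28 to 0.62 (r = 0.90), the latter measured on 4 of 15 lung arrays. Of the 3 secreted factors listed 2 were kept and 0 called, and Bmp10, an atrial factor, was measured on 1 lung array.

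The 7 muscle energy genes, all kept and 0 called, had r of 0.85 to 0.97 with the members without mouse 12, against 0.15 to 0.71 with it. Ckm, muscle creatine kinase, reached 2.25 outside mouse 12 and read 5.29 in mouse 12.

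The skeletal muscle genes set mouse 12 apart from all other lungs. Of 15 listed, 10 were kept, 0 were called, and all 10 were highest in mouse 12. Acta1 read 5.56 in mouse 12 against -1.16 or less elsewhere, and Myh4, the fast heavy chain, was measured on that array alone, with 5.00 against at most 0.36. The same lung was also highest for the 3 kept genes of stratified squamous epithelium, for example Krt13 with 4.34 against at most -1.23, and it had the highest value of the brown fat gene Ucp1 (5.56). In the other 14 lungs the skeletal muscle list lay within -0.30 to 0.42 of the median lung, but Myl1, a light chain of fast muscle, ran from -2.92 in mouse 3 to 1.72 in mouse 20 there, with r = 0.97 to the members over those 14 lungs. The part of the skeletal muscle RNA in the Sln value of mouse 12 was not tested.

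White fat genes also moved with the members. The 4 listed genes, Adipoq, Cfd, Plin1 and Retn, had r of 0.54 to 0.59 with the members over 15 lungs and 0.71 to 0.79 without mouse 12, and their mean was 2.60, 1.93 and 1.22 above the median lung in mice 7, 15 and 20, and 1.69 above it in mouse 12. Mesothelium genes ran the other way, with r of -0.66 to -0.43 for the 5 kept. The 8 smooth muscle, 6 lung epithelium and 4 airway epithelium genes that were kept had r of at most 0.49, 0.42 and 0.51, and no gene of these lists, of airway cartilage, brown fat or liver was called at any dose. Whether tissue that came with these lungs has a part in the cardiac values was not tested.

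**Figure D4:**
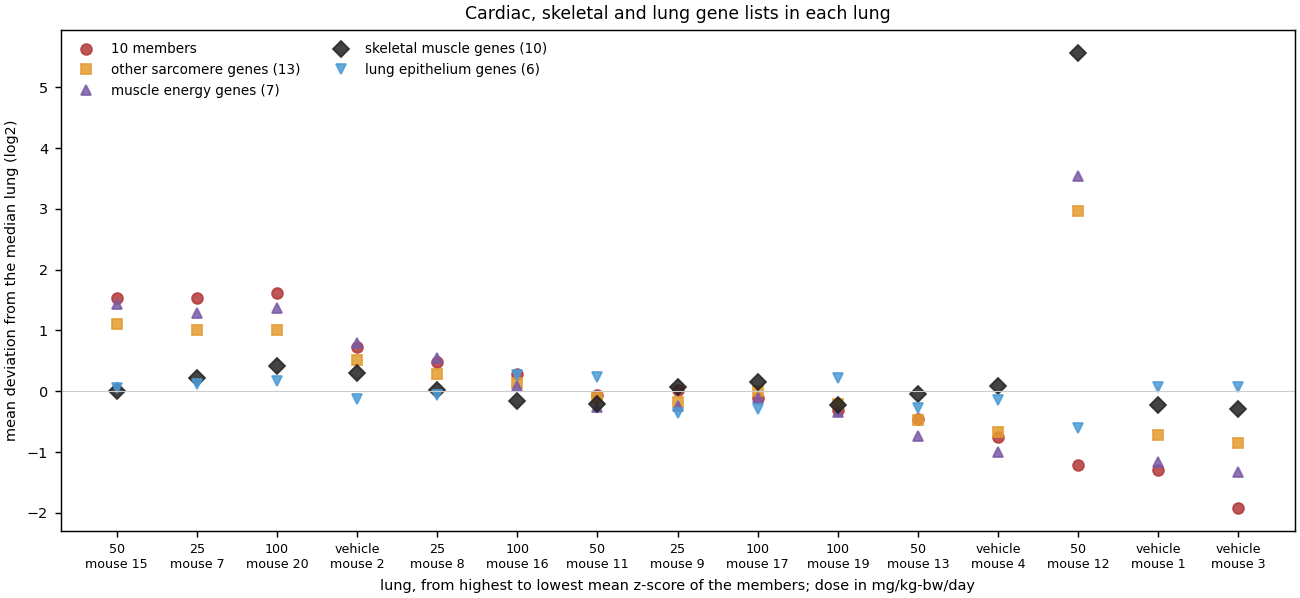
Mean deviation from the median lung (y axis, log2) of the 10 members and of 4 other gene lists in each of the 15 lungs, ordered from the highest to the lowest mean z-score of the members (x axis, with BkF dose in mg/kg-bw/day). By their means, sarcomere and muscle energy genes run close to the members except in mouse 12, where they are 2.96 and 3.54 above the median lung and skeletal muscle genes 5.56 above it.

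Outside the members and over 15192 named genes kept in lung, the genes most like the members' mean z-score over 15 lungs included Mybphl, a myosin-binding protein of atrium (r = 0.95), Pln (0.95), the kinase Mapk10 (0.94), the long noncoding RNA Mhrt of the cardiac myosin locus (0.93), Hamp, the iron hormone hepcidin (0.92), Igsf1 (0.91), Tbx20 (0.90), Frmd5 (0.89) and Reg3g, a secreted lectin (0.88). These 9 genes were measured on 4 to 13 of the 15 lung arrays, Tbx20, Mhrt and Pln on 4, 5 and 6. The median r over all ranked genes was 0.00, and 8 of them reached 0.9. Mybphl ran from -0.01 in mouse 3 to 3.20 in mouse 15, and Reg3g from 0.05 in mouse 4 to 6.38 in mouse 7.

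The second question was how lung compared with the other tissues of vehicle mice. Against liver, 6 of the 10 members were called higher in lung, a rule that called 23.4% of all probes tested in that direction, and 0 were called lower. Actc1 was higher by 2.84 ± 0.33 (SE, 4 against 4 arrays, limma adjusted p = 3.11e-09), Myh6 by 3.66 ± 0.72 (limma adjusted p = 4.98e-05, measured in 1 of 4 vehicle livers), Myl4 by 3.36 ± 0.67 (limma adjusted p = 5.26e-05) and Tnnt2 by 2.18 ± 0.59 (limma adjusted p = 0.0019). Sln and Myl7 were measured in 3 of 4 vehicle lungs and in 0 of 4 vehicle livers, so that they were at least 3.77-fold and 2.40-fold higher in lung (limma adjusted p = 0.0154 and 0.0329). Those bounds use the sample channel alone and set the lung mean against the lowest signal well above background on each liver array. Without vehicle lung 2 the count was 4, with Sln and Myl7 lost, and it was 5, with Myl7 lost, without any 1 of vehicle livers 1, 2 and 3.

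Against forestomach, 3 members were called higher in lung and 0 lower, with 18.4% of all probes called in that direction. Myh6 was higher by 3.65 ± 0.72 (limma adjusted p = 8.39e-05), with 0 of 4 vehicle forestomachs well above background, where the probe has only an upper limit. Myl4 was higher by 2.66 ± 0.67 (limma adjusted p = 0.00123) and Actc1 by 2.27 ± 0.33 (limma adjusted p = 6.72e-07). The SE and p again use the pooled spread, and a fit of the 2 groups alone called the same 3 members. Myl7 was the reverse in sign, with a mean of 1.93 in vehicle lung and 2.80 in vehicle forestomach, but the difference of -0.87 ± 0.71 missed the threshold (limma adjusted p = 0.323). Without vehicle lung 2 that difference was called, lower in lung, which made the count 4.

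In the other tissues some members were measured throughout and others were at background. Myl4, Tnnt2 and Actc1 were well above background in 13 of 13 livers and in 14, 14 and 13 of 14 forestomachs. Of 13 livers, Myh6 was well above background in 2, Myl7 in 3, Tnni3 in 3, Sln in 1, Ryr2 in 1, Mybpc3 in 2 and Nppa in 0, and of 14 forestomachs, Myh6 in 1, Nppa in 1, Ryr2 in 4 and Mybpc3 in 0. In forestomach Myh6 stayed between -0.21 and 0.46 in forestomach, while Myl7 ran from 0.37 to 3.71 and Tnni3 from -0.59 to 4.14, measured on 11 and 9 of the 14 arrays, with r = -0.48 between them. Sln ran from -0.32 to 2.94 there and was measured on 8. In liver, Sln was well above background only in high-dose mouse 17, at 3.61, and Tnnt2 read 0.37 there and 0.12 in medium-dose mouse 12 against -1.29 or less in the other 11 livers. The liver of mouse 17 also had the highest skeletal muscle list, 4.38 above the median liver, against 0.07 or less in the other livers.

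**Figure D5:**
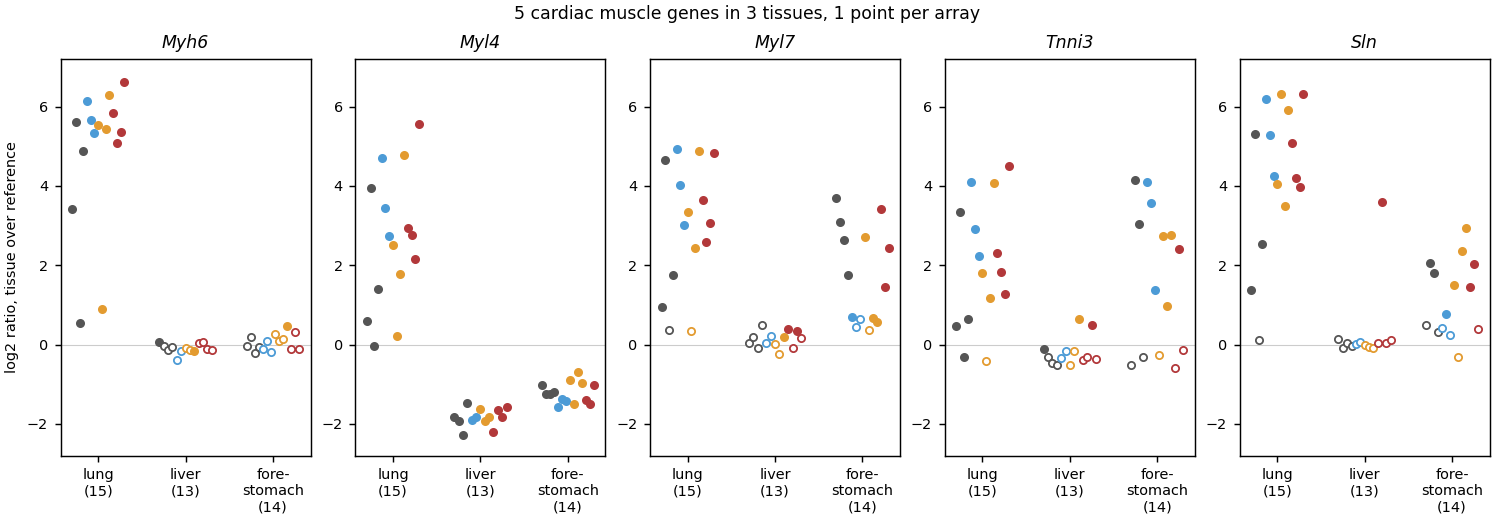
Log2 ratios (y axis) of Myh6, Myl4, Myl7, Tnni3 and Sln on each lung, liver and forestomach array (x axis, number of arrays in brackets); colours are BkF doses as in the plots by dose (vehicle grey, 25 blue, 50 orange, 100 red mg/kg-bw/day), and open points were not well above background. Myh6 and Myl4 are high in lung alone, while Myl7, Tnni3 and Sln are also high in some forestomachs, and Sln in 1 liver.

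The way the signal is scaled changed the size of several members' ranges. The values above use signals without background subtraction, as the study did, and the scanner software's own ratios subtract it. With those ratios the range over lungs went from 1.98 to 5.62 for Ryr2, from 2.02 to 6.02 for the dim Myh6 probe, from 2.69 to 4.72 for Nppa, from 2.55 to 3.87 for Mybpc3 and from 4.91 to 7.53 for Tnni3, which then passed Sln (6.19 to 6.80). It went from 6.07 to 5.45 for the bright Myh6 probe and from 0.97 to 1.05 for Actc1. No spot of a member was saturated on any array.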

How the data were processed

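RNA of 42 samples (15 lungs, 13 livers and 14 forestomachs of 15 mice) was hybridised in Cy5 against universal mouse reference RNA in Cy3 on Agilent arrays, with no dye swap. The deposited scanner files hold median intensities per spot, from Feature Extraction 10.7.3.1 (lung and forestomach) and 11.0.1.1 (liver) per the file headers. The authors' own value table holds log2 ratios that they normalized by LOWESS, and it served as an alternative. Its lung and forestomach columns had r of 0.994 to 0.999 with the scanner files, and its liver columns had r near 0 (-0.0030 to 0.0003), so they were not used. Each log10 ratio that the scanner software deposited was turned into log2 as an alternative.

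In R 4.3.3 with limma 3.58.1, 3671 control spots were given no weight and dropped, the log2 of Cy5 over Cy3 median intensity (no background subtracted) of 59305 spots was normalized by loess within each array, and spots were averaged to 55681 probes. Probes were named by RefSeq accession (27267, or 49.0%, had a symbol); the brightest probe in lung stood for a gene. Probes well above background on at least 3 lung arrays were kept (32697). The number of arrays limits the precision. Dose effects came from 1 limma fit of the 15 lungs, and tissue effects from 1 fit of 42 arrays with 12 group means, over probes kept in lung or in the other tissue; the study itself used a permutation F test in MAANOVA, not run here. P-values measure the spread between mice, which the tissue fit pools over its 12 groups. The fits were checked on simulated data.

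The 10 members, the gene lists and the tests were chosen with earlier results of these data known. Named genes were all members, the 10 non-members most like them, and a set choice of list genes, of which some are not reported here; Krt13, Ucp1, Tbx20, Slc8a1, Jph2, Myl1 and the white fat genes were named after their values were seen. Alternatives were another background correction, the scanner ratios, median centring, the authors' table, no filter, slide as a block, 2 groups alone, and each array left out. Mouse numbers pair tissues of 1 animal; same-mouse deviations of vehicle lung correlated with liver at r of -0.03 to 0.19 and with forestomach at -0.03 to 0.37. All 42 columns of the value table belonged to samples. Python 3.11.15 was used for correlations and figures.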

Additional observations from a re-analysis of the deposited data

Results flagged for a closer look

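In groups of 4 arrays, a value that lies far from the other 3 was looked for in each member. Chance gives such a value in about 1 of 20 groups, and 6 of the 57 groups examined had one. In lung, Myh6 of medium-dose mouse 12 (0.89) lay below the other 3 lungs of its group (5.43 to 6.28). Nppa of medium-dose mouse 15 (1.70) lay above the others (-0.13 to -0.04), as did Nppa of high-dose mouse 20 (0.68, others -0.11 to -0.05). In forestomach, Myl7 of medium-dose mouse 11 (2.71) lay above the others (0.37 to 0.66). In liver, Sln of high-dose mouse 17 (3.61, others 0.04 to 0.11) and Tnni3 of high-dose mouse 19 (0.50, others -0.38 to -0.31) lay above the other livers. No member's high-dose effect in lung differed from that in liver or forestomach in the 14 interaction tests that could be run (lowest limma adjusted p = 0.958).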

How the results depend on the processing

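The count of 0 members called in lung was kept for each dose, the trend and the test for any difference under every alternative run, leave-one-out included, and the lowest limma adjusted p of a member was 0.285 (Sln at the high dose, slide as a block). Over all probes the counts moved from 0 to at most 1 for low dose, from 5 to between 0 and 11 for medium dose, from 11 to between 3 and 26 for high dose, from 11 to between 0 and 24 for the trend and from 5 to between 0 and 10 for any difference. With the mouse number as a replicate block, which pairs tissues, 6 members were called against liver and 3 against forestomach, as without it. Against liver, median centring called 7 members (Ryr2 added), and leaving out 1 array gave 4 to 6; against forestomach the range was 3 to 4. The authors' table was not run against liver, as its liver columns could not be matched. The correlation of Myh6 with Myl7 stayed between 0.85 and 0.94. That of Myh6 with Acta1 was -0.83 without vehicle mouse 3 (permutation adjusted p = 0.0481), 0.0841 without mouse 12 and 0.13 without both, with a range of -0.83 to 0.0841 over single lungs left out; the cause was not tested.

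Of 473 recomputed dose differences of single members, 455 kept their sign and none was called. The 18 that changed sign were small, and the cause was not tested. With median centring Actc1 was -0.0805 at the low and -0.0237 at the high dose. With 1 lung left out, the low-dose differences ran from -0.0512 to 1.28 for Nppa and from -0.0464 to 0.26 for Actc1 (lowest without mouse 7). The medium-dose differences ran from -0.11 (without vehicle mouse 3) to 2.13 (without mouse 12) for Myh6 and, lowest without mouse 15, from -0.0549 to 0.56 for Nppa, -0.18 to 1.40 for Tnni3, -0.0835 to 0.14 for Actc1, -0.0387 to 0.61 for Ryr2 and -0.0745 to 0.60 for Mybpc3. The high-dose differences, lowest without mouse 20, ran from -0.0539 to 0.21 for Nppa, -0.14 to 0.19 for Actc1 and -0.0386 to 0.69 for Mybpc3. Signal over background limits Nppa, Ryr2 and the dim Myh6 probe, which were measured on 7, 9 and 8 of 15 lung arrays.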
